A study of Mus musculus with 2 samples.

Results

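The 5 genes described here encode enzymes that write or oxidise DNA methylation in the mouse: Tet1, Tet2, Tet3, Dnmt1 and Dnmt3a. Their members in the data are all 5-hydroxymethylcytosine (5hmC) peaks that share at least 1 base with a fixed mm9 window around each gene. The windows span 64 to 120 kb and 470 kb in all. They held 1 of the 6726 peaks called at passage 5 and 34 of the 60157 called at passage 0. Mouse embryonic fibroblasts (MEFs) from C57BL/6 embryos at day 13.5 were grown in high-glucose DMEM with 10% fetal calf serum and harvested at passage 5 or at passage 0, with 1 library at each passage. DNA fragments carrying 5hmC were captured by GLIB, a chemical tagging of the hydroxymethyl group, and sequenced. The labels name no transgene, deletion or drug for either group, and they do not say how many embryos the cells came from. The labelled cell type could not be checked, because peaks of a DNA mark give no expression of marker genes.

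DNMT enzymes attach a methyl group to cytosine, mostly where a C is followed by a G. DNMT1 copies existing methylation onto the new strand when DNA is replicated, and DNMT3A sets methylation at sites that had none. The TET enzymes oxidise 5-methylcytosine to 5hmC and further products, from which the unmodified base can be restored. TET1 carries a CXXC domain that binds unmethylated CpG-rich DNA, and TET2 has lost that domain in evolution. Loss of 5hmC has been described when fibroblasts adapt to growth in culture.

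The 5 genes differ in how rich in CpG their start regions are. RefSeq, on build GRCm38.p6, gave 9 start regions of 300 bases for the 5 genes, each from 250 bases before to 50 bases after a start site. The dinucleotide CG, which reads the same on both strands, occurred 17 times in the Tet1 region and 57 times in that of Tet2. It occurred 22 times in the Tet3 region, 2, 12 and 33 times in the 3 Dnmt1 regions, and 46, 47 and 18 times in the 3 Dnmt3a regions. The median over 32851 such regions of all genes was 7. At least 17 CG were found in 31.4% of them, at least 57 in 0.152% and at least 46 in 1.65%. The regions of Tet1, the gene named in the study's title, of Tet2, with the most CG, and of Dnmt3a, with the most peaks, are printed 5′ to 3′ on the gene's own strand with each CG in capitals. They lie on GRCm38.p6 at chr10:62887275-62887574 (minus strand), chr3:133544341-133544640 (minus strand) and chr12:3806730-3807029 (plus strand, the first of the 3 listed). These positions belong to another build than the peaks, which are on mm9, so no peak was placed relative to a start site, exon or intron, and the sequence of the peaks themselves is not shown.
Tet1: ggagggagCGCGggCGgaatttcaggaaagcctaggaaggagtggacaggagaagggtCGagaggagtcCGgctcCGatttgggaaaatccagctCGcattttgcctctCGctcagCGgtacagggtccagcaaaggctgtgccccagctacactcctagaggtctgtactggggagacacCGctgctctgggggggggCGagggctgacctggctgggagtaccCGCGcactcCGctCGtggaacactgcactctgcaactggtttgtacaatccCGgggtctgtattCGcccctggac
Tet2: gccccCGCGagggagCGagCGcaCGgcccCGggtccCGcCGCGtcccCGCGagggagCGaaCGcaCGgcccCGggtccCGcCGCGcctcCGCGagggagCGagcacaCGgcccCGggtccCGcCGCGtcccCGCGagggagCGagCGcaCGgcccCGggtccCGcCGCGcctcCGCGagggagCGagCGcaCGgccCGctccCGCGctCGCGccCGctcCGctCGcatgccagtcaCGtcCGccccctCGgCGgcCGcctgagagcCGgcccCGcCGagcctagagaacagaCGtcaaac
Dnmt3a: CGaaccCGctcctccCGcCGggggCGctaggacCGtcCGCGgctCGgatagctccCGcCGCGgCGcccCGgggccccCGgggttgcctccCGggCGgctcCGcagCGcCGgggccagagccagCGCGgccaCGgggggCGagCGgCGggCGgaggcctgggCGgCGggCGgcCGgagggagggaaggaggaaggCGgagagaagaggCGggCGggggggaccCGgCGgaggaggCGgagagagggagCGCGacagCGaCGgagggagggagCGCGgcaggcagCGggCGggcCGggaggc

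At passage 5 the only peak in any of the 5 windows lay in the Dnmt3a window. The windows of Tet1, Tet2, Tet3 and Dnmt1 held 0 passage 5 peaks. All 5 windows had passage 0 peaks, namely 3 at Tet1, 3 at Tet2, 9 at Tet3, 3 at Dnmt1 and 16 at Dnmt3a. None of the 34 passage 0 peaks shared a base with a passage 5 peak, which is 0% with a 95% exact (Clopper-Pearson) interval of 0 to 10.3%. Over the whole passage 0 list 7.63% of peaks were retained in this sense, and that share lies inside the interval. The 0 of 34 is therefore not distinguishable from the background of the list at this number of peaks. All intervals given here cover only the counting error of peaks taken as independent. Since each passage had a single library, replicate error is unknown and the passages were not tested against each other. Read depth is also unknown for both libraries.

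**Figure D1:**
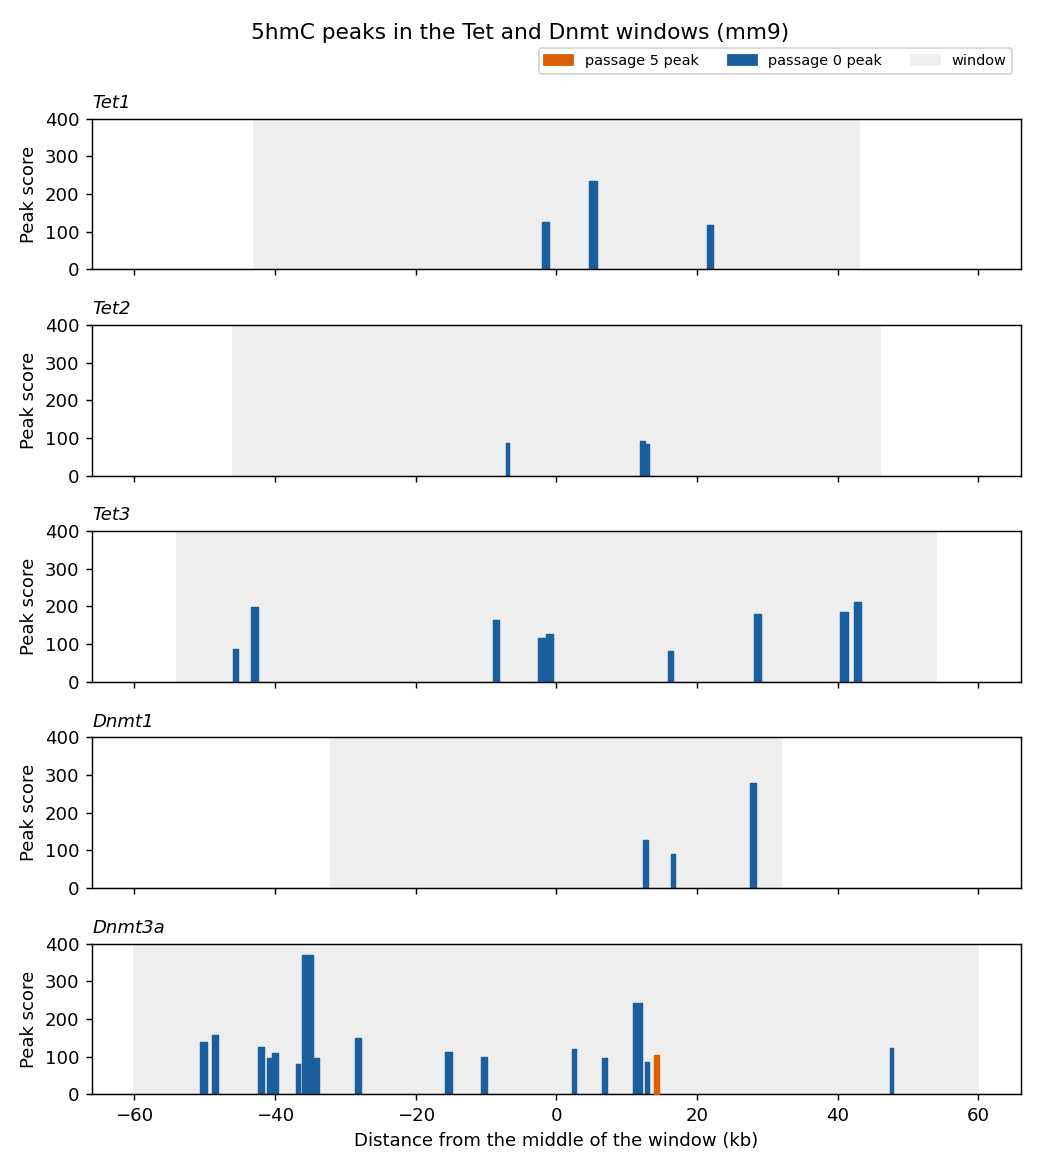
Peaks in the 5 windows, with the distance from the middle of each window in kb on the x axis and the authors' peak score on the y axis. Orange marks the single passage 5 peak, in the Dnmt3a window, and blue the 34 passage 0 peaks; scores of the 2 lists are not on a common scale.

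In number, passage 5 peaks in the windows came to 2.94% of the passage 0 peaks (exact interval 0.0724% to 17.5%), against 11.2% over the whole lists. In covered length, 738 bases lay in peaks at passage 5 and 28937 bases at passage 0. The ratio of these separate lengths was 2.55%, against 6.84% over the whole lists, and 0 of the passage 0 bases were also covered at passage 5. The interval for peak number includes the value of the whole lists. The whole passage 5 value rests on 1 peak at Dnmt3a, and without that gene the other 4 windows had 0 peaks at passage 5 and 18 at passage 0.

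Among autosomal tiles of these sizes, having no passage 5 peak was the usual case. When the autosomes were cut into non-overlapping tiles as long as each window, at least 1 passage 5 peak was found in 17.0% of tiles for Tet1, 17.9% for Tet2, 20.2% for Tet3, 13.4% for Dnmt1 and 21.7% for Dnmt3a. A lack of passage 5 peaks, as at 4 of the genes, was thus shared by most tiles. The 1 peak at Dnmt3a puts its window among the smaller share of tiles with a peak. The tiles include sequence between genes, and 41.0% (120 kb) to 52.0% (64 kb) of them held no passage 0 peak. Tiles with as many passage 0 peaks as the windows were not examined separately, so the usual case for such tiles is not known.

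Relative to the autosomes, the windows were dense in peaks at passage 0. Together they carried 7.23 passage 0 peaks per 100 kb, 2.88 times the autosomal density of 2.51. Their passage 5 density of 0.213 peaks per 100 kb was 0.761 times the autosomal 0.280, a value that rests on 1 peak. Passage 0 peaks covered 6.16% of the windows and 2.37% of the autosomes. The windows are drawn around genes, whereas the autosomes include sequence between genes. Windows around other genes were not compared, so the higher density is not known to be particular to these genes. The densest window was Dnmt3a with 13.3 passage 0 peaks per 100 kb (exact Poisson interval 7.62 to 21.7). Tet3 followed with 8.33 (3.81 to 15.8), then Dnmt1 with 4.69 (0.967 to 13.7), Tet1 with 3.49 (0.719 to 10.2) and Tet2 with 3.26 (0.672 to 9.53). The intervals of neighbours in this order overlap. Those of Dnmt3a and Tet3 lie above the autosomal density, and those of the other 3 genes include it. The intervals take peaks as independent, whereas 57.4% of the passage 0 list had another peak within 5 kb, so they may be too narrow.

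Set against tiles of the same length, Dnmt3a stood high and the genes with 3 peaks did not. Of 19987 autosomal tiles of 120 kb, 2.67% held 16 or more passage 0 peaks, and the median tile held 1. For Tet3, 8.95% of 22203 tiles of 108 kb held 9 or more. At least 3 peaks were found in 28.8% of the tiles for Tet1, 30.2% for Tet2 and 22.6% for Dnmt1. Tiles with no passage 0 peak at all made up between 41.0% (120 kb) and 52.0% (64 kb), so a gene window with 3 peaks is above the median tile but not rare. Like the autosomal density, the tiles include sequence between genes.

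**Figure D2:**
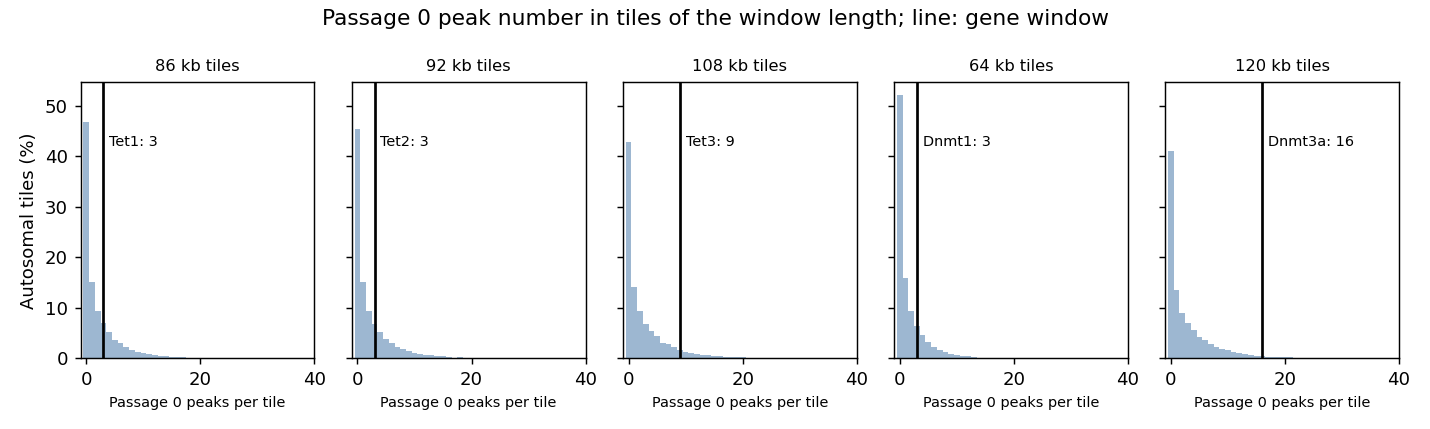
Number of passage 0 peaks per autosomal tile (x axis) against the share of tiles in percent (y axis), for tiles as long as each gene window. The black line is the gene window: 16 peaks at Dnmt3a lie far to the right, and 3 peaks at Tet1, Tet2 and Dnmt1 lie within the bulk of tiles that hold any peak.

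Tet1, the dioxygenase whose regulation the study is about, had 3 passage 0 peaks and 0 passage 5 peaks in its window at chr10:62262000-62348000. The gene is 82.9 kb long in RefSeq's GRCm38.p6 table and is read on the minus strand there. That length equals 96.4% of the length of the mm9 window, and the gene's borders were not placed on mm9. The strongest and widest passage 0 peak lay at chr10:62309615-62310716, was 1102 bp wide and had a score of 234, above 83.5% of the passage 0 list. The score is the authors' own value per peak, unnamed in the files, and was used to rank peaks within a list and, in 2 of the alternative settings, to filter both lists. The other two lay at chr10:62302934-62303926 (993 bp, score 125) and chr10:62326467-62327328 (862 bp, score 117), near the middle of the list with 47.7% and 42.4% of peaks below them. The peaks stood apart from each other, with gaps of 5.69 and 15.8 kb, and covered 2957 bases or 3.44% of the window. The first 40.9 kb of the window held none.

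The surroundings of Tet1 were poorer in peaks than the gene. The 2 flanks, each as long as the window, were without peaks at either passage. The 1 Mb centred on the window held 0 passage 5 peaks and 14 passage 0 peaks. The nearest passage 5 peaks lay 498 kb before the window, at chr10:61762424-61763728 with a score of 416 and shared with passage 0, and 606 kb after it, at chr10:62953584-62954136 with a score of 104 and without a passage 0 peak. Tet1 thus lay in a stretch of 1190 kb between consecutive passage 5 peaks, where the median gap on the autosomes was 104 kb. Such stretches are common by length, since gaps at least as long made up 48.4% of the autosomal length between passage 5 peaks.

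Tet2, the family member without a CXXC domain, had the weakest peaks. Its window at chr3:133121000-133213000 held 0 passage 5 peaks and 3 passage 0 peaks, which covered 1796 bases or 1.95% of the window, below the autosomal 2.37%. The highest-scoring and widest, at chr3:133178888-133179592, was 705 bp wide and had a score of 90.8, above only 17.2% of the list. A second peak followed after 99 bases at chr3:133179692-133180230 (539 bp, score 82.8), and the third lay at chr3:133159789-133160340 (552 bp, score 86.6). All 3 scores fell below the lower quartile of the passage 0 list, 97.2, and all 3 widths below its median of 850 bp. The start region with 57 CG printed above therefore belongs to the gene with the lowest-scoring peaks among the 5, though no peak could be placed relative to it.

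Around Tet2, the left flank held 0 peaks at either passage, and the right flank 1 peak at passage 5 and 2 at passage 0. That passage 5 peak, at chr3:133252533-133253081 with a score of 105, lay 39.5 kb beyond the window and did not overlap a passage 0 peak. In RefSeq's table the next coding gene on that side is Cxxc4. Only the order of genes was used, with no distance to Cxxc4, so the peak was not assigned to that gene.

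Tet3, the TET enzyme of the oocyte and zygote, had the most passage 0 peaks of the 3 Tet genes. Its window at chr6:83307000-83415000 held 0 passage 5 peaks and 9 passage 0 peaks covering 8412 bases, or 7.79% of the window. Their scores ran from 82.8 to 211 with a median of 163, and 5 of the 9 were above the list median of 129. The highest score belonged to chr6:83403336-83404326, 991 bp wide with a score of 211, above 79.5% of the list. The widest was chr6:83401268-83402451, with 1184 bp and a score of 187, and only 884 bases separated these neighbours. The peaks spread over the whole window in 3 pairs and 3 single peaks, and the longest gap between them was 33.4 kb.

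The flanks of Tet3 held fewer passage 0 peaks than the window. The left flank held 0 peaks at passage 5 and 2 at passage 0, and the right flank 1 and 3. The passage 5 peak on the right, at chr6:83446641-83447187 with a score of 105, lay 31.6 kb beyond the window and was shared with passage 0. In the surrounding 1 Mb there were 4 passage 5 peaks and 29 passage 0 peaks, of which 3 were retained. The 9 peaks of the window, which took up 108 kb of that 1 Mb, were not among the retained ones.

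Dnmt1, the maintenance methyltransferase, had 0 passage 5 peaks and 3 passage 0 peaks in its window at chr9:20706000-20770000. They covered 2232 bases, or 3.49% of the window. The highest-scoring and widest lay at chr9:20765548-20766438, was 891 bp wide and had a score of 278, above 88.9% of the list. The others lay at chr9:20750353-20751086 (734 bp, score 127) and chr9:20754284-20754890 (607 bp, score 89.2). The first 44.4 kb of the 64 kb window held none, so all 3 lay on the side where a gene on the minus strand begins. RefSeq lists the gene on that strand and with 52.7 kb on GRCm38.p6, a length equal to 82.3% of that of the mm9 window.

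Dnmt1 was the only one of the 5 genes with a flank denser in passage 0 peaks than the window itself. On the right the flank had 0 passage 5 and 4 passage 0 peaks, and on the left 0 and 2. One of those on the right lay only 1.75 kb beyond the window with a score of 84.9, and the strongest peak of the window lay 3.56 kb inside the same border. The passage 0 number at Dnmt1 therefore depends on where the border is drawn, and it was 5 with the window widened by 10 kb on both sides. The surrounding 1 Mb held 4 passage 5 peaks and 30 passage 0 peaks, 3 of them retained.

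Dnmt3a, the de novo methyltransferase, held 47.1% of all passage 0 peaks of the 5 windows in 25.5% of their length. Its window at chr12:3800000-3920000 had 1 passage 5 peak of 738 bp and 16 passage 0 peaks covering 13540 bases, which is 0.615% and 11.3% of the window. Passage 0 scores ran from 81.5 to 369 with a median of 116, and 5 of the 16 were above the list median. The high number was thus mostly made of peaks of modest score. The strongest and widest peak lay at chr12:3823824-3825386, was 1563 bp wide and had a score of 369, above 94.8% of the list. Second came chr12:3870964-3872245, with 1282 bp and a score of 243, above 84.8%.

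Most Dnmt3a peaks stood in runs. With gaps of up to 5 kb joined, 14 of the 16 fell into 4 runs. Over the 5 windows this held for 24 of 34 peaks, and over the whole passage 0 list 57.4% of peaks had another one within 5 kb, so such grouping was common throughout the list. The longest by number held 6 peaks in 8.78 kb at chr12:3817513-3826292, included the strongest peak, and had 5345 of its bases in peaks. Another held 4 peaks in 10.9 kb at chr12:3862191-3873136. In 4 equal parts of the window, counted in the direction in which RefSeq lists the gene to be read (plus strand), the peaks numbered 8, 3, 4 and 1. The gene is 113 kb long in RefSeq's GRCm38.p6 table, a length equal to 94.1% of that of the mm9 window. Both flanks had fewer peaks: the left held 1 at passage 5 and 4 at passage 0, and the right 0 and 3.

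The single passage 5 peak of the 5 windows lay at the end of the second of these runs. It was at chr12:3873833-3874570, 738 bp wide, with a score of 103, above 30.7% of the passage 5 list. No passage 0 peak shared a base with it. Over the whole passage 5 list 69.9% of peaks shared at least 1 base, and the exact interval for this 1 peak, 0 to 97.5%, includes that share. The nearest passage 0 peak was 696 bases away, at chr12:3872537-3873136 with 600 bp and a score of 84.5, above 8.02% of its list. The second-strongest passage 0 peak of the window ended 1.59 kb from it. The nearest other passage 5 peaks lay 69.7 kb before the window, at chr12:3729815-3730277 with a score of 98.9 and shared with passage 0, and 231 kb after it.

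**Figure D3:**
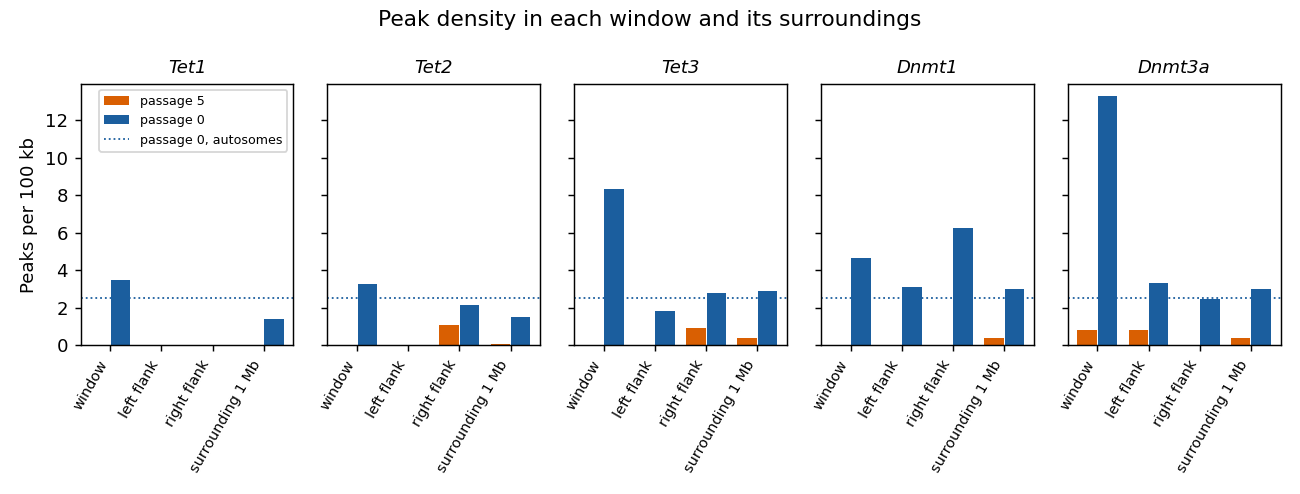
Peaks per 100 kb (y axis) in each window, in the flank of equal length on each side and in the 1 Mb centred on it, with passage 5 in orange and passage 0 in blue; the dotted line is the passage 0 density of the autosomes, 2.51. The passage 0 bar of the window stands above both flanks at Tet1, Tet2, Tet3 and Dnmt3a but not at Dnmt1.

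Over all 5 genes, the windows were denser in passage 0 peaks than their flanks. The windows had 0.213 passage 5 peaks and 7.23 passage 0 peaks per 100 kb. The 940 kb of flanks held 3 passage 5 peaks and 20 passage 0 peaks, or 0.319 and 2.13 per 100 kb. In the windows 0 of 34 passage 0 peaks were retained, against 2 of 20 in the flanks, which is 10.0% with an exact interval of 1.23% to 31.7%. In the 5 Mb around the genes, windows included, 8 of 118 were retained, 6.78% (2.97% to 12.9%), and the list's 7.63% lies inside this interval. These intervals overlap, and the 118 peaks include the 34 of the windows. Whether retention was lower inside the windows than around them was not tested.

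The scores of the members leaned slightly low within the passage 0 list, which was not tested. Their median was 122 against 129 for the list, and 12 of 34, or 35.3%, lay above the list median. Scores under 100 were found for 35.3% of the members and 28.0% of the list. A score of at least 200 was reached by 5 of the 34, 1 each at Tet1, Tet3 and Dnmt1 and 2 at Dnmt3a, against 22.9% of the list. The median width was 852 bp in the windows and 850 bp in the list. In the list as a whole, retained peaks had a median score of 214 and the others 125. Passage 0 peaks within the members' score range, 81.5 to 369, were retained in 6.51% of cases, and those above it in 30.5%.

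**Figure D4:**
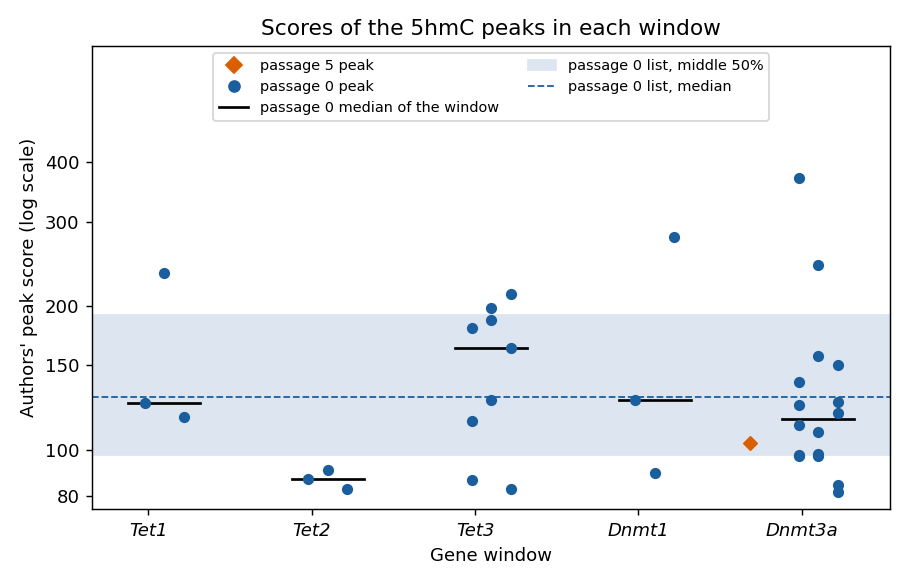
The authors' score of each peak on a log axis, by gene window, with the passage 5 peak as an orange diamond and passage 0 peaks as blue circles; black lines are window medians at passage 0, and the band and dashed line are the middle 50% and the median of the passage 0 list. The 3 Tet2 peaks lie below the band, and the highest point is the Dnmt3a peak at 369.

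By role, the windows of the oxidising enzymes held 0 passage 5 and 15 passage 0 peaks in 286 kb, and those of the methyltransferases 1 and 19 in 184 kb. In passage 0 density this was 5.24 peaks per 100 kb at the Tet genes and 10.3 at the Dnmt genes. Single genes made up most of each number: Tet3 carried 9 of the 15 peaks at the Tet genes and Dnmt3a 16 of the 19 at the Dnmt genes. Counted along the gene in RefSeq's direction, 22 of the 34 passage 0 peaks lay before the middle of the window, on the side where the gene begins, and 12 after it, and 11 of the 22 were at Dnmt3a. At Tet3 the split was 4 and 5. The same split was not counted for other genes, and a lean toward gene starts was not tested.

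Distances to the closest passage 5 peak differed between the genes. They were not computed for the whole passage 0 list, so no background stands beside them. Over the 34 passage 0 peaks the median distance was 59.3 kb. At the Tet genes it was 87.3 kb, and 2 of 15 peaks, both at Tet3, lay within 50 kb of a passage 5 peak. At Tet1 all 3 peaks lay 539 to 563 kb away. At the Dnmt genes the median was 48.4 kb, and 10 of 19 peaks lay within 50 kb. All 10 were at Dnmt3a, where the window's own passage 5 peak is near them. The Dnmt1 peaks lay 123 to 138 kb away, farther than the Tet2 peaks at 72.3 to 92.2 kb, so the distances do not follow the 2 families. A site without a called passage 5 peak can be said only to have fallen below the authors' threshold, not to lack 5hmC, and a difference in depth or enrichment between the 2 libraries cannot be told apart from a difference between passages.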

How the data were processed

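5hmC was measured in 1 MEF library per passage. Build mm9 and the tools CASAVA 1.8, Bowtie 0.12.7 and MACS 1.4.1 are named, without roles, in the submitters' processing notes. For the peak threshold, duplicate reads and any input control, the settings were not given in the sources used here. Each library has a deposited peak list, with a score that is the authors' own for each peak and no read depth. Precision is limited by peak number, by the unknown depth and by the single library per passage. The deposited start was raised by 1 base to count from 1. Peaks sharing at least 1 base with a window were members, and a peak was retained when it shared at least 1 base with the other list. The rule for named items took each window's highest-scoring and widest passage 0 peak and every passage 5 peak; where a window held 3, all were given. Tiles and flanks counted peaks by midpoint. Intervals are 95% exact, except that the one used for covered bases is the interval of peak number, rescaled. Overlap counts equalled those of bedtools 2.31.1 and were tested on simulated data. Python 3.11.15, numpy 2.4.6, pandas 2.3.3, scipy 1.17.1 and matplotlib 3.10.9 were used. The members, lists and alternatives were chosen with earlier results of these data known. Alternatives covered score, window borders, midpoint assignment, merging, overlap and leaving out each gene. Other genes of the pathway were not analysed here, as no mm9 annotation was used.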

Additional observations from a re-analysis of the deposited data

How the results depend on the processing

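Of 48 recomputed pooled values, 43 lay inside the interval around the value in the text and 5 lay outside it. For covered bases this interval, 0.0627% to 15.2%, was the exact interval of peak number rescaled to the covered-base ratio. With the upper 50% of each list by score, passage 5 number and covered bases both came to 0% of passage 0, because the single passage 5 peak scored below its list's median. Without the Dnmt3a window both were also 0%, since that window held the only passage 5 peak, and how many passage 5 peaks had a passage 0 counterpart could not be computed in either setting. That share was 100% and not 0% when a distance of up to 1 kb counted as shared, a setting chosen after the distance of 696 bases was seen; the share of passage 0 peaks retained was then 2.94%. In the other settings, retention was 0%. Of 165 values for single genes, 20 changed by more than 1.5 times or between 0 and another value. Many of the others were 0 to begin with and stayed 0. With a score of at least 100 in both lists, Tet2 had 0 passage 0 peaks and Dnmt3a 10, though the scores of the lists may not share a scale. With peaks within 1 kb merged, Dnmt3a had 10. The intervals of the pooled values are wide because 1 passage 5 peak is involved, so staying inside them is no measure of stability. No paired analysis was possible because there was 1 library per passage and no test.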
